A study of Mus musculus with 219 samples.

Results

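The embryos described here were twin blastocysts, each grown from 1 of the 2 blastomeres of a mouse embryo that was split at the 2-cell stage. The oocyte had been fertilised by intracytoplasmic sperm injection (ICSI), in which a single sperm head is placed into the ooplasm. The members were the twin libraries of the blastocyst count table, 38 of the 219 samples of the series and 38 of its 69 blastocyst libraries, and the counts of twins a and b of 1 embryo were added, so that the embryo was the replicate. All embryos carried the label B6C3F1xCD1 and were cultured in KSOM, and they differed in where the sperm head was released relative to the spindle of meiosis II. It lay opposite to the spindle, at the vegetal pole, in 6 pairs (contralateral), next to it, at the animal pole, in 7 pairs (ipsilateral), and half-way between both poles in 6 pairs (equatorial). Pairs are named by site (Co, Is or Eq) and the embryo number of the labels. The letters a and b of the twins also come from the labels. Per the study, which blastomere of a pair is first cannot be known beforehand. Fits of twin a or twin b alone thus split the pairs by letter, and a letter marks no known kind of twin. The sister blastomeres were cultured singly, so each twin had started from 1 blastomere and not from a whole embryo. The comparisons ask whether the ICSI site left a trace in gene expression several divisions later, and whether both twins of an embryo carried it.

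A blastocyst holds 3 lineages. The trophectoderm is the outer epithelium that pumps fluid into the cavity and later forms the placenta, the epiblast gives rise to the fetus, and the primitive endoderm lines the cavity side of the inner cells and forms the yolk sac. Cdx2, Gata3 and the keratins mark the first, Nanog, Sox2 and Pou5f1 the second, and Gata6, Sox17 and Gata4 the third. The twin libraries were made of whole blastocysts, so that fewer cells of a lineage and less RNA per cell cannot be told apart.

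The twins' libraries held between 713410 and 2161062 counts, and the pairs between 1676976 and 3095134. All of them lay on 1 plate. Contralateral and equatorial pairs shared no row of wells, so that row and site cannot be told apart between them, while ipsilateral pairs shared rows with equatorial pairs and with pair Co-122, and the part of the row in their differences was not tested beyond leaving out row M. The contralateral pairs had 13772 ± 188 genes with a count (mean ± SD over 6 pairs), the ipsilateral pairs 13936 ± 304 (7 pairs) and the equatorial pairs 14090 ± 337 (6 pairs). The largest of these differences did not pass an exact 2-sided permutation test (p = 0.0823, adjusted over 9 tests p = 0.351). The blastocyst label fitted the markers, as 19 of 20 trophectoderm, 17 of 17 epiblast and 17 of 18 primitive endoderm markers passed the filter on low counts. The summed markers of cumulus cells, which surround the oocyte, stayed at or below 22.7 CPM (counts scaled so that each library sums to 1e6) in every twin. The CPM of single genes, other than Xist, were scaled further between libraries, as given under the processing. Pair Co-122 stood apart: its twins were the least alike of all pairs, and one of them had 10605 genes with a count where the other 37 twins had 11531 to 13247. Values without this pair are given beside the results that moved with it.

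Across all 10995 genes tested, no gene changed between ICSI sites past the adjusted threshold. edgeR's quasi-likelihood test with Benjamini-Hochberg adjustment called 0 genes (0%) at an adjusted p under 0.05 in each of the 3 contrasts. The smallest adjusted p was 0.109 for contralateral against equatorial, 0.131 for ipsilateral against equatorial and 0.431 for contralateral against ipsilateral. At an unadjusted p under 0.05 there were 728 genes (6.62%) for contralateral against equatorial, 395 higher (3.59%) and 333 lower (3.03%) in the contralateral pairs. For ipsilateral against equatorial there were 426 (3.87%), 225 higher (2.05%) and 201 lower (1.83%), and for contralateral against ipsilateral 754 (6.86%), 364 higher (3.31%) and 390 lower (3.55%). The test for any difference among the 3 sites gave 669 genes (6.08%) at that level. Other tools called a few genes at an adjusted p under 0.05. DESeq2 called 6 (0.0546%), 1 (0.0091%) and 1 (0.0091%), in the same order of contrasts, and limma-voom on the single twins, with the correlation of co-twins in the model, called 3 (0.0273%), 0 and 0. The genes below are therefore described by their values, and every unadjusted p is named as such.

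Genes whose pair CPM did not overlap between sites were few. There were 32 (0.291%) for contralateral against equatorial, 13 (0.118%) for ipsilateral against equatorial and 21 (0.191%) for contralateral against ipsilateral. When the single twins were compared in place of the pairs, 0 genes (0%) separated any 2 sites. Of the pair-separated genes, the 5 with the smallest unadjusted p in each direction are named for each contrast, beside every gene that DESeq2 or limma-voom called.

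Between contralateral and equatorial twin pairs, the smallest p were those of lower contralateral levels of Tex264, Rhbdd2 and Limd2 and of higher levels of Hsp90aa1, Fermt1 and Abcc4. Tex264, a receptor that delivers endoplasmic reticulum to autophagosomes, had the smallest p of the contrast (chr9:106658746-106685927, GRCm38). Its level was 44.9, 61.3 and 75.01 CPM (lowest, median and highest pair) after contralateral ICSI and 91.2, 105.6 and 138 CPM after equatorial ICSI, while the ipsilateral pairs averaged 96.1 ± 14.7 CPM. No contralateral pair reached the lowest equatorial one, and the single twins overlapped, at 33.5 to 78.1 against 68.7 to 149 CPM. The log2 fold change was -0.84 (SE 0.16, unadjusted p = 9.88e-06, edgeR adjusted p = 0.109). It was -0.87 in twin a alone and -0.76 in twin b alone. DESeq2 and limma-voom gave Tex264 adjusted p of 0.00136 and 0.0286, and the alternatives ranged up to 0.937.

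Rhbdd2, a rhomboid-like membrane protein (chr5:135632618-135646448), measured 33.5, 43.5 and 47.3 CPM in the contralateral and 61.4, 81.1 and 100.8 CPM in the equatorial pairs. The groups did not overlap, with a log2 fold change of -0.94 (SE 0.19, unadjusted p = 2.22e-05, DESeq2 adjusted p = 0.00293, range over alternatives up to 0.937). Of its exonic bases, 9.77% are shared with predicted genes on the other strand, and the counts carry no strand. Limd2, a LIM-domain protein (chr11:106156256-106160860), averaged 39.7 ± 13.2 against 78.2 ± 15.01 CPM, a log2 fold change of -0.97 (SE 0.22, unadjusted p = 8.67e-05). Cyb561d2, of the cytochrome b561 family (chr9:107539007-107542193), and Aph1a, a subunit of the gamma-secretase that cleaves Notch receptors (chr3:95893969-95898288), completed the lower genes. Cyb561d2 averaged 43.7 ± 10.4 against 73.6 ± 6.46 CPM and Aph1a 32.01 ± 8.12 against 59.6 ± 15.8 CPM. Aph1a shares 12.9% of its exonic bases with Car14.

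Among the genes with higher levels after contralateral ICSI, Fermt1, which encodes the integrin activator kindlin-1 (chr2:132904389-132945906), had the widest ratio. It lay at 23.7, 31.9 and 80.3 CPM in the contralateral and 7.59, 12.9 and 23.02 CPM in the equatorial pairs. The highest value was that of pair Co-122. The log2 fold change was 1.56 (SE 0.35, unadjusted p = 0.000116, DESeq2 adjusted p = 0.0312 within alternatives up to 0.999, edgeR adjusted p = 0.256), and 1.23 without pair Co-122. Abcc4, an exporter of cyclic nucleotides and prostaglandins (chr14:118482692-118706219), averaged 76.7 ± 18.9 against 42.9 ± 7.23 CPM, with pair Co-122 again highest at 113 CPM. Its log2 fold change was 0.83 (SE 0.19) and 0.69 without that pair. DESeq2 called Abcc4 at an adjusted p of 0.0312 and Limd2 at 0.0283, within alternatives up to 0.999 for both.

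Klf5, a transcription factor that early embryos need for both trophectoderm and inner cell mass, differed by less in ratio but evenly (chr14:99298691-99315036). Its level was 800, 848 and 912 CPM in the contralateral pairs, 558, 664 and 773 CPM in the equatorial pairs and 592, 676 and 798 CPM in the ipsilateral pairs. All 6 contralateral pairs thus lay above all 13 others. The log2 fold change was 0.36 (SE 0.09, unadjusted p = 0.00028) against equatorial and 0.32 (SE 0.08, unadjusted p = 0.000645) against ipsilateral pairs, which share the contralateral samples. Against equatorial, it was 0.26 in twin a alone and 0.44 in twin b alone, with unadjusted p of 0.0108 and 0.000493. limma-voom on single twins gave an adjusted p of 0.0286 for Klf5, with alternatives up to 0.878.

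Hibadh, an enzyme of valine breakdown (chr6:52546228-52640389), averaged 167 ± 21.2 against 115.6 ± 9.77 CPM. Scd1, the desaturase that makes monounsaturated fatty acids (chr19:44394455-44407879), averaged 319 ± 24.1 CPM in contralateral, 314 ± 61.5 in ipsilateral and 231 ± 21.1 CPM in equatorial pairs. The contralateral and equatorial pairs of both genes did not overlap, at log2 fold changes of 0.53 (SE 0.13) and 0.46 (SE 0.11). Hsp90aa1, the inducible form of the cytosolic chaperone Hsp90 (chr12:110690605-110702728), averaged 2921 ± 404 against 2275 ± 256 CPM, with overlapping pairs. Its log2 fold change was 0.36 (SE 0.08, unadjusted p = 0.000109, DESeq2 adjusted p = 0.0304, range over alternatives up to 0.937). Arhgef3, a guanine nucleotide exchange factor (chr14:27114899-27403911), averaged 50.1 ± 10.8 against 22.9 ± 12.8 CPM, a log2 fold change of 1.14 (SE 0.29). limma-voom called it at an adjusted p of 0.0286, and its alternatives reached 0.982.

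**Figure D1:**
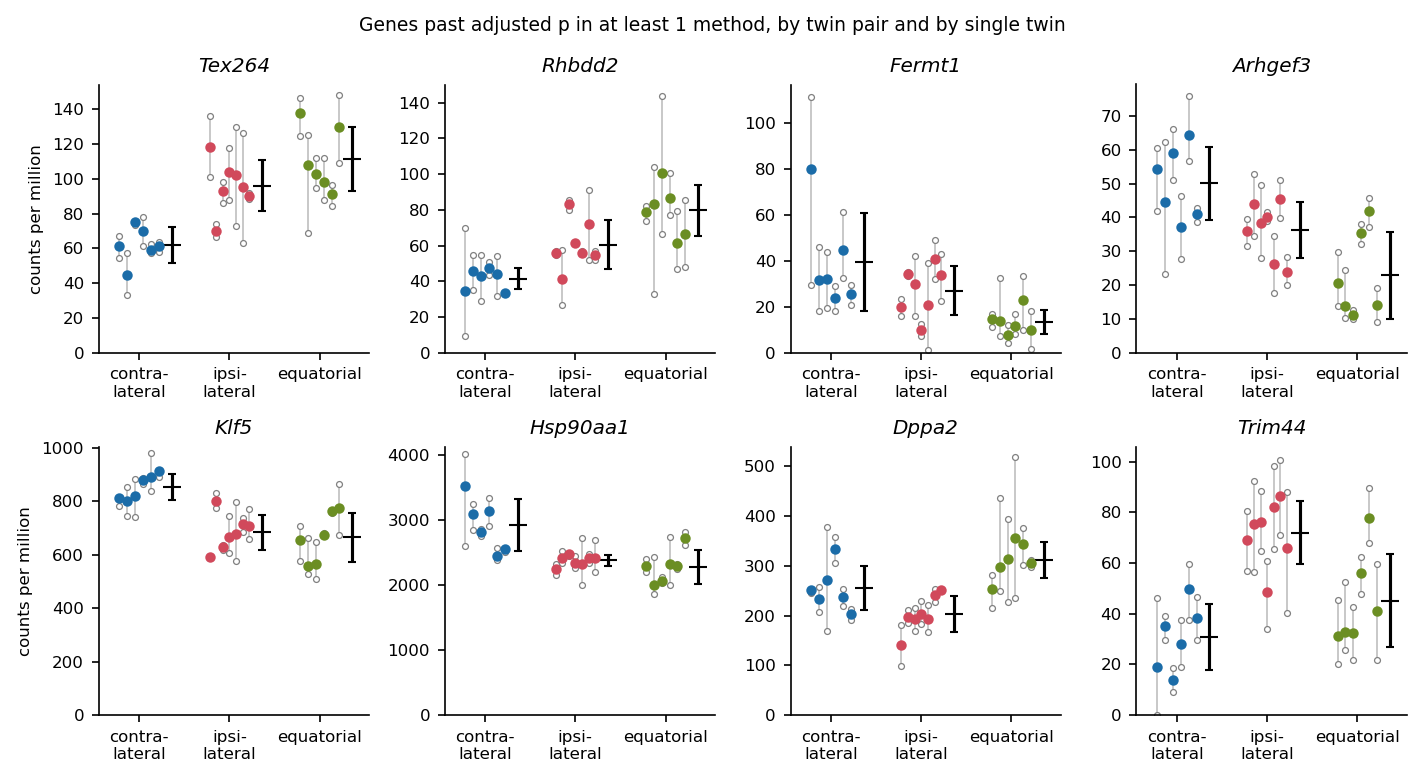
CPM of 8 named genes by ICSI site: coloured points are twin pairs with their mean ± SD, and open circles joined by a grey line are the single twins of a pair. The contralateral pairs of Klf5 lie above all other pairs, and those of Tex264 lie below all equatorial pairs, while the single twins of each gene overlap between any 2 sites.

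Between ipsilateral and equatorial pairs, the smallest p was that of Dppa2, a DNA-binding protein of pluripotent cells that primes developmental and early embryonic genes (chr16:48303908-48319723). Dppa2 measured 141, 197 and 250 CPM in the ipsilateral and 254, 310 and 357 CPM in the equatorial pairs. The contralateral pairs, at 255 ± 44.5 CPM, lay between both. The log2 fold change was -0.62 (SE 0.12, unadjusted p = 1.19e-05, edgeR adjusted p = 0.131), with -0.87 in twin a alone and -0.42 in twin b alone. DESeq2 called Dppa2 at an adjusted p of 0.0179 and edgeR without the filter on low counts at 0.0123, within a range of alternatives up to 1.00. Tm7sf3, a membrane protein with 7 spans (48.6 ± 8.15 against 76.4 ± 17.97 CPM), Sf3b1, the core splicing factor of the U2 particle (346 ± 28.5 against 414 ± 21.7 CPM), Wdr18, which acts in ribosomal RNA processing (190 ± 25.1 against 233 ± 17.5 CPM), and Ttll6, a tubulin glutamylase (9.66 against 18.2 CPM), were the other lower genes without overlap. Ttll6 did not reach an unadjusted p under 0.05 (p = 0.0547). Sf3b1 had its difference mainly in twin a, at -0.47 against -0.08 in twin b on the log2 scale.

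On the higher side of the ipsilateral pairs, Ankrd33b, an ankyrin-repeat protein (chr15:31291478-31367726), lay at 28.8, 52.7 and 74.3 against 15.3, 22.7 and 27.9 CPM. The X-linked Morc4, a nuclear ATPase (chrX:139821632-139871677), lay at 45.01, 66.9 and 146 against 10.2, 26.2 and 42.9 CPM. Their log2 fold changes were 1.26 (SE 0.31, unadjusted p = 0.000319) and 1.44 (SE 0.38, unadjusted p = 0.000833). Pairs with Y transcripts numbered 4 of 7 in the ipsilateral and 4 of 6 in the equatorial group. Cln6, an endoplasmic reticulum protein that lysosomal enzymes need (110 ± 19.1 against 71.9 ± 10.3 CPM), Limch1, an activator of non-muscle myosin (32.998 ± 9.58 against 14.7 ± 4.41 CPM), and the autophagy receptor Optn (112 ± 9.66 against 82.5 ± 13.1 CPM) followed. In all 5, the lowest ipsilateral pair exceeded the highest equatorial one.

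Between contralateral and ipsilateral pairs, from opposite poles of the oocyte, the smallest p was that of Trim44, a TRIM-family protein of the ubiquitin system (chr2:102300119-102407828). Trim44 measured 13.99, 31.7 and 49.6 CPM in the contralateral and 48.5, 75.2 and 86.3 CPM in the ipsilateral pairs, so that 1 value of each group crossed. The log2 fold change was -1.22 (SE 0.26, unadjusted p = 5.02e-05, edgeR adjusted p = 0.431). DESeq2 called it at an adjusted p of 0.0453, and edgeR with the Y transcripts as a covariate at 0.00273, where the log2 fold change was -1.50; other alternatives ranged up to 0.998. Tbc1d2, which switches off the late endosomal GTPase Rab7 (chr4:46604390-46650209), measured 13.9, 17.5 and 25.4 against 30.3, 47.5 and 64.4 CPM. Its groups did not overlap, and both twins showed the difference, at -1.22 in twin a and -1.27 in twin b (both twins -1.24, SE 0.28, unadjusted p = 0.000118).

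The other lower genes without overlap were Bcl7a, Kmt5c, Syce1 and Zfp704. Bcl7a, a subunit of the BAF remodelling complex, averaged 7.49 ± 1.70 against 18.01 ± 3.37 CPM, Kmt5c, which trimethylates histone H4, 27.99 ± 8.73 against 48.2 ± 8.62 CPM, Syce1, of the synaptonemal complex, 5.00 ± 2.99 against 14.1 ± 4.20 CPM, and the zinc finger gene Zfp704 85.4 ± 6.85 against 120 ± 17.5 CPM. Higher after contralateral ICSI, beside Klf5, were Zfand1, a zinc finger protein of stress granule clearance (chr3:10339953-10351317; 81.9 ± 36.5 against 43.9 ± 9.54 CPM), the retromer-associated sorting nexin Snx2 (803 ± 60.7 against 673 ± 56.5 CPM), the chaperonin subunit Cct4 (474 ± 64.4 against 391 ± 23.2 CPM) and the lipid carrier Stard7 (145 ± 24.4 against 108.7 ± 16.7 CPM). Zfand1 had a log2 fold change of 0.89 (SE 0.23), and 0.61 without pair Co-122, which had 155 CPM. Its difference was 1.32 in twin a and 0.27 in twin b. Stard7, also highest in pair Co-122, differed by 0.42, and by 0.33 without that pair.

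In the contrast it was named for, every gene above kept an unadjusted p under 0.05 whichever pair was left out, other than Wdr18, in 17 of 19 cases, and Ttll6, in 6 of 19. Some share exonic bases with other genes, which counts without strand cannot separate: Zfp704 16.6%, Cln6 7.44% and Tm7sf3 5.73%, the last with Med21, and among the markers below Sox17 16.8% and Pou5f1 14.1%. Both twins pointed the same way for the genes named by the non-overlap of pairs: in each contrast, 10 of 10 had the same direction in a fit of twin a alone and of twin b alone. An unadjusted p under 0.05 in both twins was reached by 7, 4 and 4 of them. Since each pair's value is the sum of its twins, these fits show how the difference was divided and are no independent test. Over all 9564 genes fitted in both, 58.1% of the contralateral to equatorial differences had the same direction in twin a and in twin b, 51.7% of the ipsilateral to equatorial and 53.5% of the contralateral to ipsilateral ones. Genes at an unadjusted p under 0.05 in twin a numbered 480 (4.86% of those tested), 467 (4.73%) and 733 (7.42%), and in twin b 429 (4.38%), 327 (3.34%) and 424 (4.33%). Those below that p in both twins with the same direction numbered 32, 24 and 26, and with opposite directions 1, 4 and 4. The 32, 24 and 26 were 6.78%, 5.18% and 3.61% of the twin a genes and 7.57%, 7.5% and 6.22% of the twin b genes. Of all genes fitted in both, 4.42%, 3.35% and 4.37% were below that p in twin b, in either direction.

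The lineage markers differed little between sites, and none passed the adjusted threshold. In contralateral against equatorial pairs, 17 of 19 trophectoderm markers had a log2 fold change above 0 (median 0.13, against 0.01 over all genes). At an unadjusted p under 0.05, 4 were higher and 0 lower, where 3.59% and 3.03% of all genes were. Among the fifth of all genes with the highest mean level, 63.7% were above 0 in this contrast, with 8.37% higher and 2.09% lower. The part of abundance in the trophectoderm difference was not tested. Krt18, a keratin of the trophectoderm epithelium, lay at 1327 to 1511 against 1087 to 1318 CPM, without overlap (log2 fold change 0.23, SE 0.07, unadjusted p = 0.00293). The others were Dppa1 (0.33, unadjusted p = 0.00583), Gata2 (0.36, p = 0.0378) and Id2 (0.21, p = 0.0415). The lineage's master regulator Cdx2 was at 206 ± 46.5 against 187 ± 24.4 CPM and did not pass (unadjusted p = 0.273), nor did Gata3 (0.10), Eomes (0.21) or Krt8 (0.08). The count of 4 fell to 2 without pair Co-125 or pair Eq-114, while the median stayed between 0.12 and 0.21 when any pair was left out. In ipsilateral against equatorial pairs, 2 of 19 trophectoderm markers were higher and 0 lower at that p, where 2.05% and 1.83% of all genes were. Elf5 had the smallest p of them (0.80, unadjusted p = 0.00935). In intact blastocysts, 0 were higher and 3 lower in that contrast. In contralateral against ipsilateral pairs, 3 were higher and 1 lower, where 3.31% and 3.55% of all genes were.

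Epiblast markers had the opposite sign. In the contralateral pairs, 3 of 17 were above the equatorial level, with a median log2 fold change of -0.28, and in the ipsilateral pairs 4 of 17, with a median of -0.20. Both medians share the equatorial pairs. At an unadjusted p under 0.05 there were 0 lower markers in either contrast. Pou5f1, which holds the inner cells pluripotent, averaged 209 ± 45.7 CPM in contralateral pairs, 209 ± 46.4 in ipsilateral and 253 ± 39.1 in equatorial ones (log2 fold changes of -0.28 and -0.28, unadjusted p = 0.0648 and 0.0553). Its contralateral to equatorial difference was -0.62 in the fit of twin a and -0.01 in that of twin b. Sox2 averaged 37.3 ± 16.2, 42.1 ± 21.9 and 50.2 ± 12.02 CPM, and Nanog 49.7 ± 17.3, 46.4 ± 6.87 and 56.7 ± 11.8 CPM, with overlapping groups. Dppa5a was the 1 marker that was higher in contralateral against equatorial pairs (0.23, unadjusted p = 0.0133). In contralateral against ipsilateral pairs, 1 of 17 was higher and 1 lower at that level, where 3.31% and 3.55% of all genes were. The lower one was Tdh (-1.23, unadjusted p = 0.0115). The summed epiblast level differed little, at 2842 ± 167, 2795 ± 285 and 2933 ± 184 CPM. Without pair Co-127, 5 epiblast markers were lower at an unadjusted p under 0.05 after contralateral ICSI, and without the pairs in well row M, 3 were lower after ipsilateral ICSI.

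As a list, primitive endoderm markers leaned higher after ipsilateral ICSI, but the regulators Gata6 and Sox17 did not. Of 17, 15 were above the equatorial level (median 0.35, 0.40 in twin a and 0.31 in twin b), against 50.7% of all genes. In the contralateral pairs, 4 of 17 were above the level of the same ipsilateral pairs (median -0.39). Only 1 was higher than equatorial at an unadjusted p under 0.05, where 2.05% of all genes were. This was the basement membrane collagen Col4a2, at 73.4 ± 25.7 against 46.4 ± 27.4 CPM (log2 fold change 0.67, p = 0.0449). Of the regulators that define the lineage, Gata6 averaged 276 ± 46.8 CPM in the ipsilateral and 302 ± 54.3 in the equatorial pairs, and Sox17 39.8 ± 13.01 and 40.4 ± 32.9 CPM. Gata4 averaged 27.3 ± 13.3 against 17.7 ± 14.6 CPM, with overlapping pairs (log2 fold change 0.63, unadjusted p = 0.325). The median stayed between 0.23 and 0.70 when any pair was left out, with 0 to 3 markers higher at that p. Without the pairs in well row M it was 0.87, with 5 markers higher. Within row M the summed level was 1442 and 1775 CPM in pairs Is-129 and Is-130, and 2341 and 1570 CPM in pairs Eq-131 and Eq-132. Over all pairs, the summed level of 1924 ± 382 against 1655 ± 458 CPM overlapped.

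**Figure D2:**
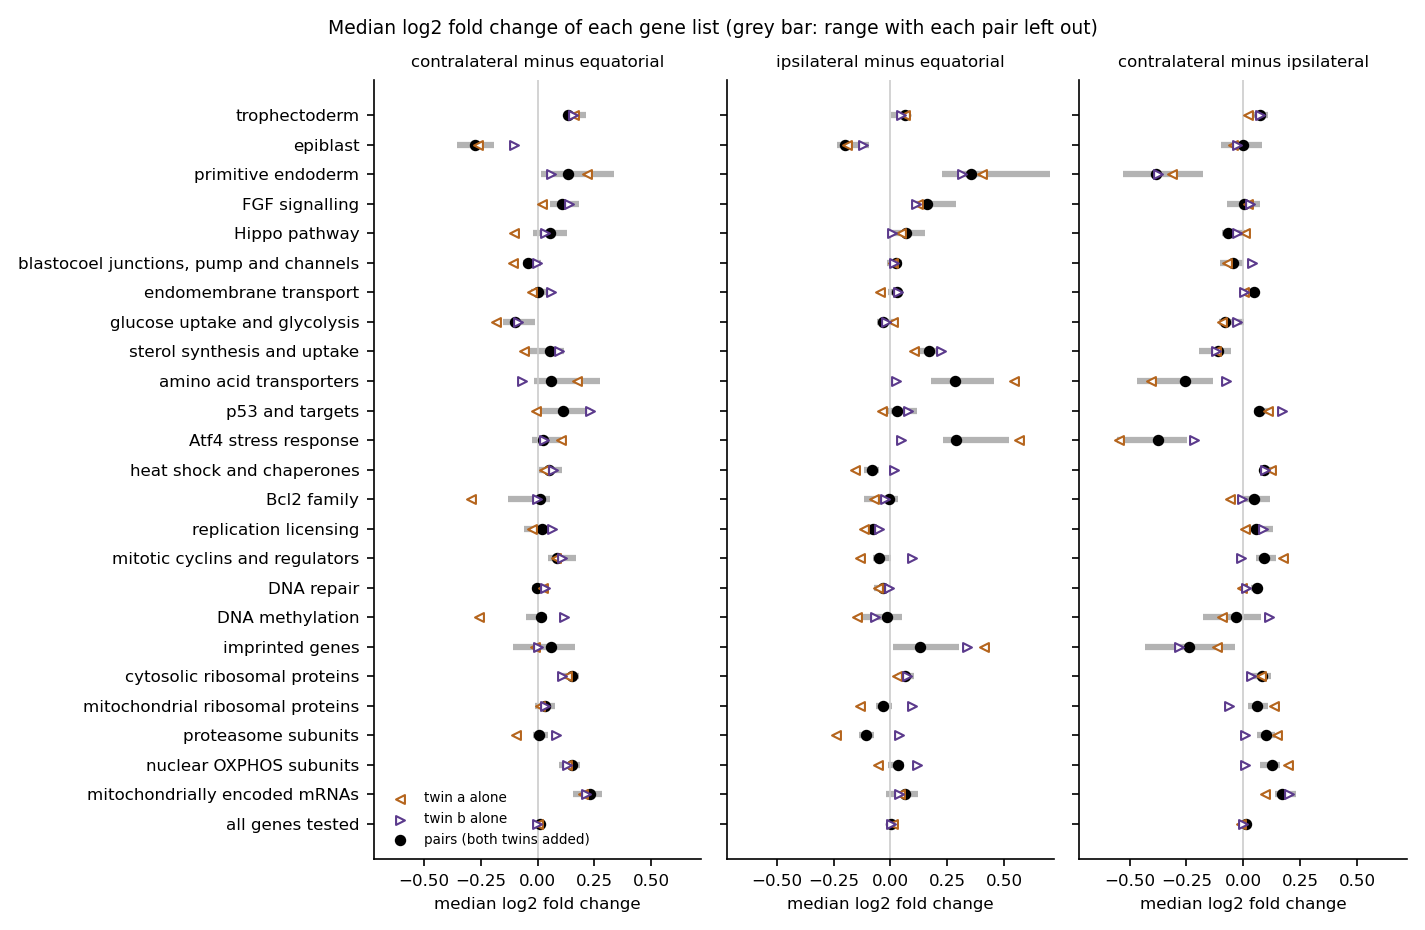
Median log2 fold change of each gene list for the 3 contrasts: black marks are the twin pairs, left- and right-pointing triangles twin a and twin b alone, and grey bars the range when each pair is left out in turn. The epiblast list lies below 0 in contralateral against equatorial pairs (-0.28), and the primitive endoderm list lies above 0 in ipsilateral against equatorial pairs (0.35) and below 0 in contralateral against ipsilateral pairs (-0.39).

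Transcripts of mitochondrial respiration and of ribosomes were higher by a small amount after contralateral ICSI. All 13 mRNAs encoded by the mitochondrial genome had a log2 fold change above 0 against equatorial pairs (median 0.23), 6 of them at an unadjusted p under 0.05. The smallest p was that of mt-Nd6, a subunit of complex I, at 489 ± 32.7 against 400 ± 80.7 CPM (log2 fold change 0.29, unadjusted p = 0.00975). The nuclear subunits of the respiratory chain and ATP synthase went the same way, with 76 of 81 above 0 (median 0.15) and 19 higher and 0 lower at that p. Of 84 cytosolic ribosomal proteins, 82 were above 0 (median 0.15), with 17 higher and 0 lower. Of all genes, 51.1% were above 0, and 3.59% were higher and 3.03% lower at that p. Ribosomal protein genes have many processed copies in the genome, and how reads were shared among them is not known.

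These counts moved when single pairs were left out or depth was added to the model. Without pair Co-122, 5 respiratory subunits were higher and 1 lower, and 2 ribosomal proteins and 2 mitochondrial mRNAs were higher. The respiratory count was 7, 6 and 8 without pair Co-126, pair Eq-114 and pair Eq-115, the ribosomal count 11, 3 and 6, and it was 8 without pair Co-124 and 32 without pair Co-128. The mitochondrial mRNA count was 2 without pair Eq-114. With total counts and detected genes as covariates, 3 respiratory subunits, 1 ribosomal protein and 3 mitochondrial mRNAs were higher. The medians stayed above 0 in each case, at 0.09 or more without any 1 pair and at 0.09, 0.05 and 0.19 with the depth covariates. Among the fifth of all genes with the highest mean level, 63.7% were above 0 and 8.37% higher against 2.09% lower at that p. The share of counts from mitochondrial genes was 1.54 ± 0.147% in the contralateral and 1.36 ± 0.203% in the equatorial pairs, a difference that did not pass the exact permutation test (2-sided p = 0.117, adjusted p = 0.351). The part of abundance in these differences was not tested.

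Both twins had these medians above 0: the respiratory subunits had 0.13 in twin a and 0.13 in twin b, the ribosomal proteins 0.13 and 0.11, and the mitochondrial mRNAs 0.20 and 0.21. Against ipsilateral pairs the picture was split. In twin a the respiratory subunits had a median of 0.20, with 20 higher at an unadjusted p under 0.05. There, 7.42% of all genes were below that p in either direction. In twin b these subunits had a median of 0.01, with 0 higher. Ndufb10, a complex I subunit, had the smallest p among them in the pairs, at a log2 fold change of 0.35 (SE 0.10, unadjusted p = 0.0016).

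After ipsilateral ICSI, genes of the Atf4 response, which cells switch on under amino acid shortage or protein folding stress, were on the higher side. All 16 tested members were above the equatorial level (median 0.29), as were 50.7% of all genes. At an unadjusted p under 0.05, 3 members were higher, where 2.05% of all genes were. These were Atf4 itself (0.25, p = 0.0188), the pseudokinase Trib3 (0.76, p = 0.0102; 147 ± 42.4 against 87.3 ± 35.2 CPM) and Ddit4, an inhibitor of mTORC1 (1.53, p = 0.0135). The fits by letter were unlike here: the median was 0.57 in twin a, with 5 members at that p, and 0.04 in twin b, with 0. The amino acid transporters, several of which Atf4 induces, had a median of 0.28 (0.54 in twin a and 0.03 in twin b), with Slc38a2 at 0.60 (unadjusted p = 0.022). Without pair Eq-116 or Eq-131, 6 Atf4 response genes were higher at that p, as were 6 without row M (median 0.47). The summed Atf4 level overlapped, at 1938 to 3186 CPM in ipsilateral and 1311 to 2596 CPM in equatorial pairs, with pair Eq-116 the highest of the latter. Within row M it was 1938 and 1954 CPM in pairs Is-129 and Is-130, and 2384 and 1633 CPM in pairs Eq-131 and Eq-132.

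The proteasome was another list whose difference lay in the fit of twin a. Its 46 subunits had a median of -0.11 in ipsilateral against equatorial pairs, with 2 lower at an unadjusted p under 0.05, where 1.83% of all genes were, and 9 lower without pair Is-129. In twin a alone 20 were lower (median -0.24), where 4.73% of all genes were below that p in either direction, and in twin b 0 (median 0.04). Heat shock genes were also on the lower side, with 3 of 19 lower (1 lower and 1 higher without row M), among them the Hsp70 co-chaperones Dnaja1 (-0.29, unadjusted p = 0.0024) and Dnajb1 (-0.36, p = 0.0146). Sterol synthesis genes were on the higher side, with 19 of 21 above 0 (median 0.17; 0.10 in twin a and 0.22 in twin b). Cyp51, the sterol demethylase, averaged 167 ± 44.7 against 120.6 ± 22.5 CPM (0.48, unadjusted p = 0.00424), and the cyclase Lss differed by 0.60 (p = 0.00568). In contralateral against ipsilateral pairs, which share the ipsilateral samples, 4 sterol genes were lower at an unadjusted p under 0.05, where 3.55% of all genes were. These were Cyp51 (-0.53, p = 0.00158), Lss (-0.66), Mvd (-0.70) and their regulator Srebf2 (-0.33). In intact blastocysts, the sterol list went the other way in that contrast, with a median of 0.14 and 1 higher and 0 lower. For ipsilateral against equatorial intact blastocysts the median was 0.10, with 0 higher and 1 lower.

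A few single members of other lists reached an unadjusted p under 0.05. The imprinted, paternally expressed Peg3 averaged 38.7 ± 21.7 CPM in the ipsilateral, 14.5 ± 8.31 in the equatorial and 13.6 ± 7.89 in the contralateral pairs, with log2 fold changes of 1.43 (p = 0.00265) for ipsilateral against equatorial and -1.49 (p = 0.00184) for contralateral against ipsilateral pairs. Twin a and twin b gave 1.18 and 1.47 for the first of these. Pkm, the pyruvate kinase that ends glycolysis, averaged 192 ± 38.4 CPM in the contralateral and 266 ± 38.7 in the equatorial pairs (-0.47, p = 0.00156), and the glucose transporter Slc2a1 differed by -0.55 (p = 0.0249). Of the 15 tested genes of glucose uptake and glycolysis, 2 were lower and 1 higher at that p, where 3.03% and 3.59% of all genes were. The median of this list was -0.10 in twins and 0.06 in intact blastocysts, where 1 was higher and 1 lower. Of p53 and its targets, Eda2r (1.55, p = 0.00371), Mdm2 (0.50, p = 0.00898) and Ccng1 (0.31, p = 0.0317) were higher after contralateral than equatorial ICSI. These were 3 of 15 tested members, where 3.59% of all genes were higher, and the list median was 0.11. In intact blastocysts the list had a median of -0.18 in that contrast, with 1 member higher and 2 lower. Genes of FGF signalling, by which the epiblast directs the primitive endoderm, had 0 of 11 members at that p in all 3 contrasts, and replication licensing factors 0, 0 and 1 of 17. The Hippo pathway, which separates outer from inner cells, had 2, 1 and 0 of 18, the junctions, pumps and channels of the blastocyst cavity 1, 0 and 2 of 19, endomembrane transport 5, 0 and 2 of 41, mitotic regulators 2, 0 and 3 of 19, mitochondrial ribosomal proteins 2, 3 and 1 of 78, and DNA repair genes 2, 2 and 6 of 56, where 6.62%, 3.87% and 6.86% of all genes were below that p. Without pair Co-122, the last of the 3 counts was 0 for mitotic regulators and 4 for endomembrane transport.

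**Figure D3:**
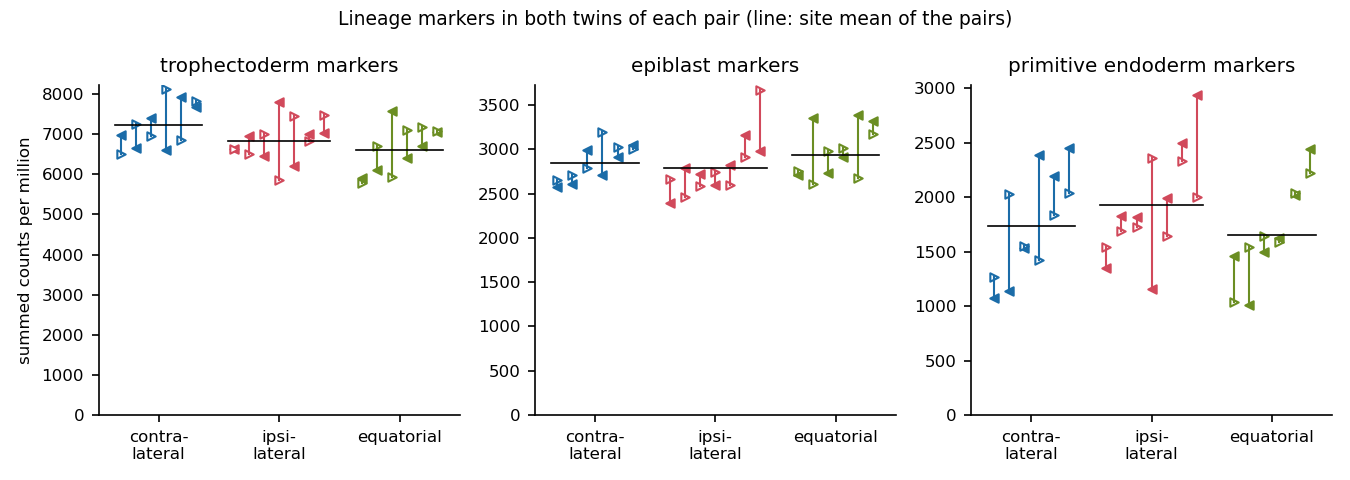
Summed CPM of the trophectoderm, epiblast and primitive endoderm markers in each twin, by ICSI site: filled left-pointing triangles are twin a, open right-pointing triangles twin b, joined within a pair, and the line is the site mean of the pairs. The median ratio between co-twins is 1.07 for trophectoderm and epiblast and 1.19 for primitive endoderm, with 2.04 in pair Is-121. Both co-twins are on the same side of the median of all twins in 8, 12 and 14 of 19 pairs, in the same order.

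Co-twins were more alike than twins of different embryos, by a margin that overlapped widely. The distance between 2 twins, taken as 1 minus the Spearman correlation of log2 CPM over the tested genes, was 0.0944 ± 0.0255 within the 19 pairs. It was 0.107 ± 0.0232 between different embryos of the same site and 0.108 ± 0.0241 between embryos of different sites. For 15 of 38 twins the nearest of the other 37 libraries was the co-twin (4 contralateral, 5 ipsilateral and 6 equatorial), and for 22 the co-twin was among the nearest 5.

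By site, the distance within pairs was 0.0996 ± 0.0352 after contralateral, 0.0971 ± 0.0235 after ipsilateral and 0.0861 ± 0.0174 after equatorial ICSI. None of the 3 differences passed the exact 2-sided permutation test, with p of 0.496 for contralateral against equatorial, 0.355 for ipsilateral against equatorial and 0.893 for contralateral against ipsilateral (adjusted p = 0.744, 0.744 and 0.893). Pair Co-122, at 0.167, was the farthest. Without it, the mean contralateral minus equatorial distance was -5.93e-05.

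**Figure D4:**
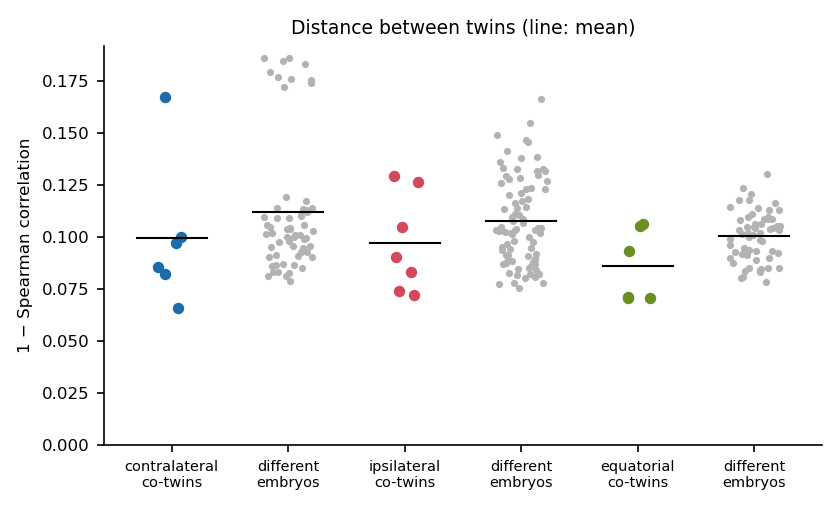
Distance between twin libraries (1 minus the Spearman correlation of log2 CPM) for co-twins and for twins of different embryos of the same ICSI site. Co-twins average 0.0944 against 0.107, their ranges overlap, and pair Co-122 lies highest among co-twins at 0.167.

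The lineage sums of co-twins differed by a median ratio of 1.07 for trophectoderm (largest 1.33, in pair Is-121), 1.07 for epiblast (largest 1.29, in pair Eq-114) and 1.19 for primitive endoderm (largest 2.04, in pair Is-121). Both twins were on the same side of the median of all twins in 8, 12 and 14 of the 19 pairs. The ratios were not set beside those of twins from different embryos, so a small ratio alone shows no agreement of co-twins. Trophectoderm sums spanned 5783 to 8120 CPM over all twins, and primitive endoderm sums 1006 to 2936 CPM. The Atf4 response had a median ratio of 1.25 and a largest of 2.27, in pair Eq-115, and 10 pairs on the same side.

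For several of the genes named above, the level in one twin told little of the level in the other. Over 19 pairs, and given as a description, the correlation between twin a and twin b was -0.01 for Tex264, 0.22 for Klf5, -0.18 for Dppa2, -0.12 for Fermt1, -0.35 for Rhbdd2, -0.03 for Trim44 and -0.40 for Abcc4. The median over all 10995 genes was 0.09, and 512 genes (4.66%) exceeded 0.5. These correlations include the site differences and the counting error of libraries of modest depth. The named genes were also chosen for small p, most of them with pair CPM that did not overlap. That choice favours genes whose co-twins deviate in opposite directions, so their low values cannot be read against the median of all genes.

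A small group of genes was at either a high or a low level in both twins of nearly every pair, and the ICSI sites did not separate them. The Y-linked Ddx3y was at 82.5 CPM or more in both twins of 10 pairs and at 0 in both twins of the other 9. The same pairs had Eif2s3y at or above 40.6 and at or below 1.04 CPM, so that no pair was mixed. The pairs with Y transcripts numbered 2 of 6 contralateral, 4 of 7 ipsilateral and 4 of 6 equatorial. Singled out after their values were seen, the neighbouring sialyltransferase genes St6galnac4 (chr2:32587095-32599698) and St6galnac6 (chr2:32599709-32620806) were present or nearly absent by pair. St6galnac4 was at or below 7.71 CPM in both twins of 7 pairs and at or above 50.7 CPM in both twins of 12, which were 3 contralateral, 4 ipsilateral and 5 equatorial pairs. St6galnac6 was at or below 2.16 CPM in both twins of 7 pairs and at or above 11.6 CPM in both twins of 12.

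The retrocopy Tpm3-rs7 was at or below 18.6 CPM in both twins of 4 pairs and at or above 133.2 CPM in both twins of 15, which were 5 contralateral, 7 ipsilateral and 3 equatorial pairs. The ribosomal protein gene Rpl29 was at or below 126.4 CPM in both twins of 12 pairs and at or above 202 CPM in both twins of 6, and pair Co-122 was mixed, at 118.1 CPM in twin a and 291 CPM in twin b. Both have near-identical copies elsewhere in the genome, so their reads may belong in part to those. The renin gene Ren1 was at or below 9.53 CPM in both twins of 11 pairs and at or above 18.3 CPM in both twins of 8. The co-twin correlation was 0.97 for St6galnac4, 0.96 for Tpm3-rs7, 0.92 for Rpl29 and 0.91 for Ren1. These genes too were singled out after their values were seen, by this same correlation, so it is no separate evidence for them.

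Xist, the RNA that coats the inactive X chromosome, overlapped between single twins but split the pairs by the presence of Y transcripts. In the 9 pairs without them, every twin had 93.6 to 368 CPM, and co-twins differed by a ratio of at most 2.23. In the 10 pairs with them, the twins ranged from 0.899 to 130 CPM and co-twins differed by a median ratio of 3.47 and by more than 3 in 7 pairs. The widest gap was in pair Co-122, where 1 count in twin a (0.899 CPM) stood against 95 counts in twin b (130 CPM). The exons of Xist overlap its antisense gene Tsix, and the counts carry no strand, so that the 2 RNAs cannot be told apart.

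**Figure D5:**
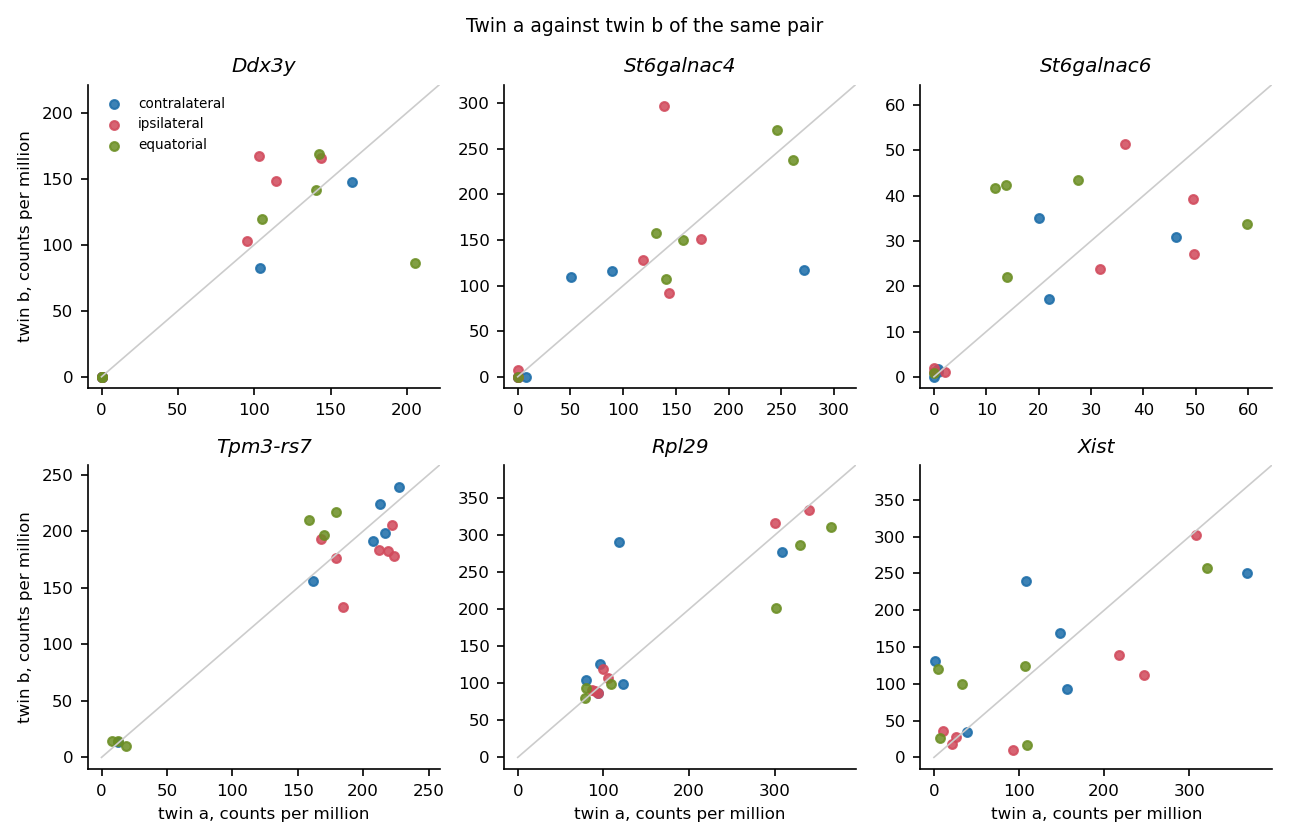
Level of 6 genes in twin a (horizontal axis, CPM) against twin b (vertical axis, CPM), with 1 point per pair, coloured by ICSI site. Ddx3y, St6galnac4, St6galnac6, Tpm3-rs7 and Rpl29 form separate high and low groups that hold both twins of a pair, other than Rpl29 in pair Co-122 (118.1 and 291 CPM), and Xist spreads between co-twins at its lower levels.

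The 31 intact blastocysts of the same count table, 11 contralateral, 8 ipsilateral and 12 equatorial, had developed from unsplit embryos and were not used to choose the genes. edgeR called 0 genes there at an adjusted p under 0.05 and 629 (6.86%), 338 (3.69%) and 522 (5.7%) at an unadjusted p in the 3 contrasts. Tex264 had a log2 fold change of -0.08 in intact blastocysts (unadjusted p = 0.787), Rhbdd2 0.08, Fermt1 -0.21 (p = 0.766) and Abcc4 -0.28 (p = 0.465). Of the 10 genes named by non-overlap in each contrast, 6 of 10, 7 of 9 and 7 of 10 of those tested had the twins' direction in the intact blastocysts, and 0, 1 and 1 did so at an unadjusted p under 0.05.

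Those that did so were Dppa2 and Klf5. In ipsilateral against equatorial intact blastocysts, Dppa2 differed by -0.97 (unadjusted p = 0.0263), and in contralateral against ipsilateral ones Klf5 differed by 0.42 (p = 0.0441). Some list members were also on the same side in both kinds of blastocyst. Dppa3, which protects the maternal genome from demethylation, differed between ipsilateral and equatorial by -0.30 in twins (p = 0.00641) and -2.02 in intact blastocysts (p = 0.00645), and the meiotic gene Sycp3 by -0.61 (p = 0.00785) and -1.12 (p = 0.0416). In twins, Dppa3 averaged 485 ± 74.9 CPM after ipsilateral and 597 ± 56.9 after equatorial ICSI, with overlapping pairs, and the difference was -0.59 in twin a and -0.07 in twin b. Pkm differed between contralateral and equatorial intact blastocysts by -0.48 (p = 0.0445). Krt18 differed by 0.19 in contralateral against ipsilateral twins (p = 0.00904) and by 0.56 in the intact blastocysts (p = 0.011), and Hsp90aa1 by 0.30 and 0.67 (p = 0.000573 and 0.007). In contralateral against equatorial intact blastocysts, Klf5, Krt18 and Hsp90aa1 did not reach an unadjusted p under 0.05 in the twins' direction.

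Over 9085 genes, 53.97%, 52.5% and 51.6% had the same direction in twins and in intact blastocysts. Genes with an unadjusted p under 0.05 in both and the same direction numbered 31, 13 and 27, which were 4.79%, 3.43% and 4.06% of the twin genes and 5.01%, 3.95% and 5.33% of the intact ones. With opposite directions there were 8, 7 and 12. Whether a site difference was unequal in twins and in intact blastocysts, in either direction, was tested as an interaction. edgeR called it for 0 of 10689 genes at an adjusted p under 0.05 and for 290 (2.71%), 220 (2.06%) and 362 (3.39%) at an unadjusted p. Among these, Cdx2 differed in ipsilateral against equatorial by 0.00 in twins and by -1.12 in intact blastocysts (interaction unadjusted p = 0.00693), and mt-Nd6 in contralateral against equatorial by 0.29 and -0.42 (p = 0.045). The mitochondrial mRNAs had a median of -0.42 in the intact blastocysts for that contrast, where the twins had 0.23, and the primitive endoderm list -0.30 where the twins had 0.13. For ipsilateral against equatorial, the primitive endoderm list had 0.03 (twins 0.35) and the Atf4 response 0.24 (twins 0.29). For contralateral against ipsilateral, these lists had -0.40 (twins -0.39) and -0.36 (twins -0.37). At an unadjusted p under 0.05, 3 of 16 Atf4 response members were higher and 3 lower there in intact blastocysts (twins 0 and 2). Of 16 primitive endoderm markers, 0 were higher and 1 lower (twins 0 and 0), where 5.7% of all genes were below that p in intact blastocysts. The epiblast list had -0.05 for contralateral (twins -0.28) and 0.04 for ipsilateral (twins -0.20) against equatorial. At the adjusted threshold, no gene was thus shown to have unequal site differences in twins and in intact blastocysts.

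At the 2-cell stage, tested in 55 other embryos (21 contralateral, 21 ipsilateral and 13 equatorial), edgeR called 1733 of 13141 genes (13.2%) for contralateral and 874 (6.65%) for ipsilateral against equatorial at an adjusted p under 0.05. For contralateral against ipsilateral, 0 genes were called. Of the 936 genes that were higher at the 2-cell stage after contralateral ICSI, 637 were tested in the twins, where their median log2 fold change was 0.08, against 0.01 over all genes, and 66.1% were above 0, against 51.1% of all genes. Of the 797 lower ones, 741 were tested, with a median of -0.03, and 56.01% were below 0, against 48.9%. At the stricter 2-cell threshold of 0.01, the shares were 68.6% and 55.7%. In the fifth of all genes with the highest mean level in the twins, 63.7% were above 0 in this contrast. The part of abundance in these shares was not tested. The genes that were higher after ipsilateral ICSI at the 2-cell stage leaned the other way. Of these, 42.4% were above 0 in the twins (309 genes, median -0.03), against 50.7% of all genes. Of the genes lower after ipsilateral ICSI, 44.99% were below 0 (389 genes, median 0.02), against 49.3% of all genes. At the 2-cell threshold of 0.01, these shares were 38.4% and 39.7%. Of the genes higher after contralateral ICSI, 56 were at an unadjusted p under 0.05 in the twins (8.79%, against 6.62% of all genes), 44 of them in the same direction. Of those lower after contralateral ICSI, 48 were (6.48%), 28 in the same direction. Among the genes named above, Pkm was lower after contralateral ICSI in 2-cell embryos by -0.68 (edgeR adjusted p = 0.000193) and Hibadh higher by 0.50 (adjusted p = 0.0445), the directions seen in the twins. Dppa2 went the other way, at 0.58 (adjusted p = 0.0183) after ipsilateral ICSI in 2-cell embryos and -0.62 in the twins.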

How the data were processed

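Raw counts per gene were deposited by the authors for SMART-Seq libraries of single blastocysts, after Trimmomatic 039, FastQC 0.12.1 and alignment with STAR 2.7.10b to GRCm38 with GENCODE M23. The protocol has no molecular identifiers, so intervals cover counting error and the spread between embryos. Per the study's methods, specimens with few detected genes were excluded, and the table holds the 69 blastocysts retained. No sample column was left unused. Coordinates and exon overlaps come from GENCODE M21 (32235 of 32285 genes matched).

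The counts of both twins of a pair were added, genes with low counts were removed by filterByExpr by site (10995 of 32285 remained), and the 3 sites were compared in 1 fit of 19 pairs with edgeR 4.0.16 (TMM, robust quasi-likelihood test, R 4.3.3), with Benjamini-Hochberg adjustment over all genes tested and a threshold of 0.05. CPM of single genes are counts divided by the TMM-scaled total of the library or pair over the tested genes, times 1e6. Summed levels of lists and the Xist values of single twins were divided by the total over all genes, without TMM factors. DESeq2 1.42.0 and limma 3.58.1 (voom on single twins, co-twins as block, consensus correlation 0.093) were alternatives, beside RLE factors, no filter, each twin alone, depth or Y transcript covariates, leaving out well row M and leaving out each pair. Intact blastocysts were fitted in the same way, and 2-cell embryos with plate as a covariate where both sisters had at least 9500 detected genes. Distances, totals and mitochondrial shares were compared by exact 2-sided permutation tests over pairs (scipy 1.17.1, Python 3.11.15). The edgeR test was tested on simulated data with known changes.

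Named genes were, per contrast, the 5 with the smallest p in each direction with a mean of at least 10 CPM, a named symbol and pair CPM without overlap, every gene called by edgeR, DESeq2 or limma-voom, 15 lineage markers, the sex transcripts and the member with the smallest p of each list. Other members are named where they passed an unadjusted p under 0.05. The members and the lists were chosen with earlier results of these data known. The p-values measure the spread between these embryos, which the labels tie to separate oocytes but not to separate sessions.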

Additional observations from a re-analysis of the deposited data

Results flagged for a closer look

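In 162 groups of 6 or 7 pairs, the highest or lowest pair was compared with the others by the gap rule, which chance meets in about 1 in 20 groups. It was met 11 times. The distance between co-twins was 0.167 in pair Co-122, where the other contralateral pairs had 0.0660 to 0.0999. The same pair was highest for Abcc4 (113 CPM, others 62.3 to 78.0), Fermt1 (80.3 CPM, others 23.7 to 44.7), Stard7 (191 CPM, others 123 to 147) and Zfand1 (155 CPM, others 62.2 to 78.3). Pair Co-126 was highest for Tm7sf3 (73.3 CPM, others 37.0 to 48.4) and lowest for Zfp704 (72.1 CPM, others 84.3 to 90.9), and pair Co-128 was lowest for Bcl7a (4.19 CPM, others 7.51 to 9.02). Pair Eq-114 was highest for Limd2 (107.2 CPM, others 64.2 to 77.8) and pair Eq-131 for Syce1 (27.1 CPM, others 6.66 to 12.8). Pair Is-121 was highest for Aph1a (77.6 CPM, others 36.8 to 49.2).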

How the results depend on the processing

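No paired analysis was possible because no embryo number occurs in more than one ICSI group. Of 2340 values of named genes under the alternatives, 0 changed direction among genes with an unadjusted p under 0.05, and 14 passed the adjusted threshold that edgeR on the pairs did not reach. Against 0 genes past the adjusted threshold, DESeq2 called 6, 1 and 1 genes (contralateral against equatorial, ipsilateral against equatorial, contralateral against ipsilateral) and 9 for any difference among sites. limma-voom on single twins called 3 genes for contralateral against equatorial and 1 for any difference. The fit without the filter on low counts called 1 gene for ipsilateral against equatorial. With the Y transcript covariate, 1 gene was called for each of ipsilateral against equatorial, contralateral against ipsilateral and any difference. At an unadjusted p under 0.05, no filter gave 2110, 1752 and 2153 genes in the same order of contrasts, with more genes tested. Twin a alone gave 480 and twin b alone 429 for contralateral against equatorial, and twin b alone 424 for contralateral against ipsilateral. limma-voom gave 730 for ipsilateral against equatorial. The causes were not tested.

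Leaving out each pair gave 567 to 915, 358 to 562 and 644 to 909 genes at an unadjusted p, and 0 to 0, 0 to 1 and 0 to 0 past the adjusted threshold (0 to 1 for any difference). The 1 gene was Prxl2a, at 0.79 on the log2 scale (edgeR adjusted p = 0.00215) without pair Eq-116. Of 2106 recomputed counts of list members, 1623 stayed within 1.5 times and 483 did not, so the lists' counts below about 10 members should be read beside their medians. Libraries of 713410 to 2161062 counts limit what can be seen for genes of a few CPM.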
